A study of Homo sapiens with 12 samples.

Results

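The genes described here code for the proteins of the cytosolic ribosome, measured in the Hodgkin lymphoma line HD-MyZ. They were chosen by symbol alone: RPL and RPS names with a number, FAU, RPLP1 and RPLP2, without RPS6K kinases, pseudogenes or RPS4Y genes. Of the 18852 genes tested, 76 met that rule, 27 of the small subunit (RPS genes and FAU) and 49 of the large subunit (RPL and RPLP genes). Each gene was read through its brightest probe, and 37 of the 76 had more than 1 probe.

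HD-MyZ cells were cultured for 24 h with 10 µM perifosine, with 5 µM sorafenib, with both drugs, or as controls, and there were 3 arrays in each of the 4 groups. Perifosine is an alkylphospholipid that inhibits AKT, and sorafenib is a kinase inhibitor that acts on RAF and several receptor tyrosine kinases. All arrays come from 1 cell line, and no label says whether the arrays of a group stem from separate cultures. The p-values therefore rest on the spread among these arrays, and that spread may be technical. The arrays of a group carry the letters A, B and C. Of the marker genes of Hodgkin lymphoma cells checked, 5 of 11 averaged a log2 intensity of 9 or more, and 70.2% of all probes lay under that level. TNFRSF8, which codes for CD30, was not among them, with intensities from 252 to 308, whereas TRAF1 ranged from 639 to 1563. Markers of T cells (0 of 6), B and plasma cells (0 of 5 measured) and epithelium (0 of 6) were under that level, as were all but 1 of 6 markers of monocytes and macrophages. The stromal list had 4 of 6 markers above it, and its summed intensity ranged from 27406 to 82330 over the 12 arrays; its part in the results was not tested.

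The ribosome joins amino acids into proteins. Its small subunit reads the messenger RNA, and its large subunit holds the site where the peptide bond is made. Ribosomal protein messages are among the most abundant in dividing cells, and most carry a 5′ terminal oligopyrimidine (TOP) tract, a run of C and T bases that opens the transcript and through which mTOR signalling, downstream of AKT, controls their translation. That control acts on the ribosomes that a message recruits, which an array of total RNA does not measure.

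The starts of 9 members are shown because the comparisons, the array differences or the paralog pairs below turn on them. Each line gives 10 bases before the RefSeq transcription start and 20 from it on, 5′ to 3′ on the gene's own strand, in build GRCh38.p14. Capitals mark a run that opens at the start with C and goes on with at least 4 further C or T bases.
RPL13A, chr19:49487598-49487627, plus strand: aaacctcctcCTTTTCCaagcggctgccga
RPL22, chr1:6199576-6199605, minus strand: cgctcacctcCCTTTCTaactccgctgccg
RPL29, chr3:51995876-51995905, minus strand: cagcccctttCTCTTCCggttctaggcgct
RPS23, chr5:82278335-82278364, minus strand: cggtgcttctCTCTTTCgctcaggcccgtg
RPS27, chr1:153990752-153990781, plus strand: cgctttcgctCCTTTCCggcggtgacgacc
RPL22L1, chr3:170870176-170870205, minus strand: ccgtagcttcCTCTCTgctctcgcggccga
RPS27L, chr15:63157458-63157487, minus strand: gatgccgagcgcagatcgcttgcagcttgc
RPL4, chr15:66504836-66504865, minus strand: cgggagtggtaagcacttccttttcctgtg
RPS26, chr12:56041908-56041937, plus strand: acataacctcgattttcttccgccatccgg

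The first 6 open with such a run, of 6 bases in RPL22L1 and 7 in the other five, and the last 3 do not open with one at the annotated base. RPS27 and its paralog RPS27L, which p53 is known to induce, differ in this. Promoter sequences of 64 of the 76 members were matched by symbol. Of these, 45 (70.3%) had a promoter that opens with the run, against 1404 of 27305 RefSeq genes (5.14%). When the start was allowed to shift by up to 5 bases, the shares were 81.2% of the members and 25.2% of all genes. A match describes letters at an annotated start and shows no use of it in these cells.

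The members lay near the top of what the arrays could record. Their median mean log2 intensity was 15.71, against 9.09 over all genes, and the highest log2 intensity anywhere in the table was 16.13. Of the 76 members, 20 (26.3%) had a mean of at least 16, against 72 of all genes (0.382%). A further 37 members averaged 14 to 16, another 16 averaged 9 to 14, and 3 were under 9. Brightness depends on the probe as well as on the message, so these values place each probe on the scale and do not rank the transcripts.

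At the top of the scale the readings hardly varied. Over the 12 arrays the 20 brightest members had a median range of 0.15 on the log2 scale and a largest range of 0.48, against a median of 1.19 and a largest of 2.47 for the other 56. These 20 were chosen by a mean of at least 16, and the highest log2 intensity was 16.13. Small ranges follow in part from that choice. Without the 3 low arrays described below, their median range was 0.09 and their largest 0.22. RPLP1 and RPS14, with means just under 16, then had ranges of 0.05 and 0.08, while RPL37 had 1.08. The contrast thus does not set the 20 apart from members such as RPLP1 and RPS14. On single arrays, 13 to 33 members reached an intensity of 65536, and 7 members did so on all 12. RPLP2, which with RPLP1 and RPLP0 forms the stalk that recruits elongation factors, read 67907, 69168 and 70264 with perifosine, 69844, 68362 and 70326 with sorafenib, 68362, 69471 and 69964 with the combination, and 69620, 69844 and 65696 in controls. The 4 groups overlapped. RPL3, a protein near the peptidyl transferase centre, RPL6, another large subunit protein, and RPL11, which binds MDM2 and restrains its action on p53, likewise stayed at mean log2 intensities of at least 16. A rise in such a gene could hardly register through its brightest probe, as the highest log2 intensity in the table was 16.13. How large a fall had to be to register was not tested. A dimmer probe of RPL6, at a mean log2 intensity of 13.09, gave -0.25 with perifosine, -0.87 with sorafenib and -0.55 with the combination, all against control. Its sorafenib arrays averaged 7010 ± 3204 and its control arrays 11669 ± 689 (SD, n = 3 each). Dimmer probes of other members on the plateau moved in both directions with sorafenib, as did 1 probe each of RPL9 (-0.66) and RPS29 (0.57). The other dimmer probes of these genes gave -0.04 for RPL9, and 0.01 and 0.13 for RPS29. These probes did not enter the main fit.

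The 3 dimmest readings were those of RPL10, RPL22L1 and RPL3L, with mean log2 intensities of 8.19, 8.14 and 8.08. RPL3L is a paralog of RPL3 used mainly in heart and skeletal muscle, and its 12 intensities ran from 229 to 314. RPL10, a late-joining protein of the large subunit, read 245 to 396. These readings lie where most probes of the array lie, so they give no usable level.

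**Figure D1:**
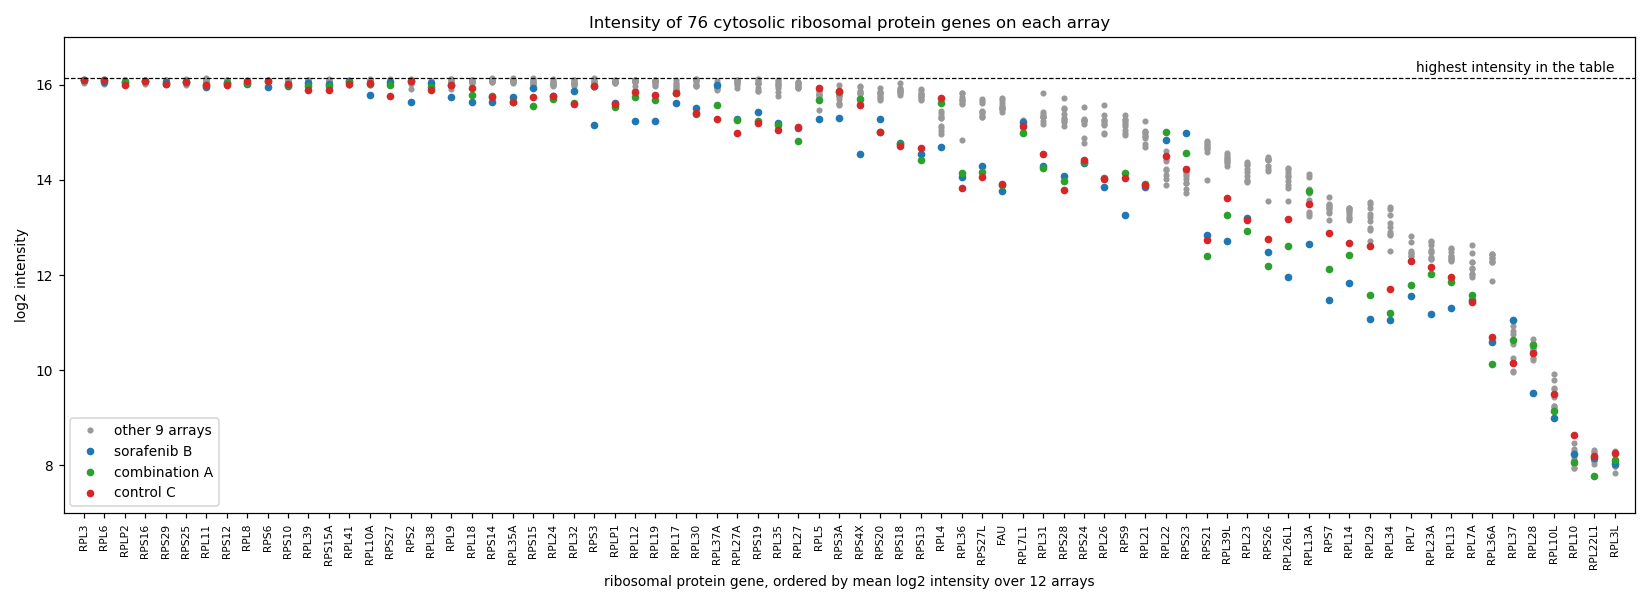
Log2 intensity of the 76 members on each of the 12 arrays, in order of mean intensity, with 3 arrays in colour (control C, sorafenib B and combination A), the other 9 in grey, and a dashed line at the highest intensity of the table. The 20 members at or above 16 form a flat plateau, and below it the coloured points mostly lie under the grey ones.

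Before the drug comparisons, 3 arrays need description, because the members read low on them. These are control C, sorafenib B and combination A. The median log2 intensity of the members was 15.17 on sorafenib B, 15.20 on combination A and 15.12 on control C, and 15.80 to 15.89 on the other 9 arrays. The median over all genes was 9.05 to 9.10 on each of the 12 arrays. The sorted columns of the 12 arrays differ by at most 2.35%, so that median could hardly differ between arrays. The labels and the table give no chip or scan, so batches of that kind could not be examined, and the cause of the low readings was not tested.

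Relative to the mean of the 2 other arrays of its group, the median member was lower by 0.49 (log2) on sorafenib B, by 0.34 on combination A and by 0.27 on control C. On these arrays 66, 68 and 62 of the 76 members were below their group mates, in that order. Of all 18852 genes, 9068, 8676 and 9108 were below. By over 0.5, 38, 32 and 29 members were below, and 2464, 1168 and 1164 of all genes. Above by over 0.5 were 1, 0 and 1 of the members, and 2865, 781 and 843 of all genes. The median over all genes deviated by 0.01, 0.02 and 0.01, and the nearly shared distribution of the arrays leaves it little room to move. As many as 57 members were below on all 3 arrays, 28 of them by over 0.5 and 14 by over 1. The counts on all 3 arrays were not taken over all genes. Across the 76 members the deviations of control C and combination A correlated at 0.92, those of sorafenib B and combination A at 0.85, and those of control C and sorafenib B at 0.76. The points share the probes and the plateau at the top of the scale, and the correlations are given as a description.

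RPS21, a small subunit protein, showed the lowest mean deviation. It read 27448, 7366 and 28613 with sorafenib, 5418, 24711 and 16243 with the combination, and 29005, 27216 and 6846 in controls. In each of these groups 1 array was far below the others, while perifosine gave 26160, 25793 and 26558. FAU, which is made as a fusion of a ubiquitin-like protein with RPS30, followed the same course, with 54422, 13851 and 46923 with sorafenib and 15285, 52208 and 43975 with the combination, against 45905, 47130 and 15349 in controls.
After RPS21 (-1.95) the mean deviations over the 3 arrays were -1.85 for RPL36A, -1.72 for RPS26, -1.71 for FAU and -1.67 for RPL34.

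The size of the deviation differed with a member's mean log2 intensity. That mean includes the 3 low arrays, so a member that fell less on them is more readily placed at 16 or more. For the 16 members at 9 to 14 the medians were -1.20 on sorafenib B, -0.93 on combination A and -0.64 on control C. For the 20 members at 16 or more they were -0.04, -0.04 and -0.06. A few members went the other way. RPS23, a protein of the decoding centre, and RPL22 were above their group mates on all 3 arrays. RPL3, on the plateau, and RPL10, near background, were also above, but have no usable deviation. RPS23 read 32471 on sorafenib B against 18295 and 15721 on its mates. RPL4 was not uniform, at 0.61 on control C, -0.67 on sorafenib B and 0.21 on combination A. Members whose promoter opens with the run had median deviations of -0.52, -0.33 and -0.35 on sorafenib B, combination A and control C (45 genes), and those without it -0.37, -0.16 and -0.26 (19 genes).

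Other lists moved with these arrays too. Nuclear-coded subunits of oxidative phosphorylation (24 of 30 measured) had medians of -1.24 on sorafenib B, -1.02 on combination A and -1.0 on control C, further from 0 than those of the members. Mitochondrial ribosomal proteins (76 genes) had medians of -1.19, -0.44 and -0.35. Other TOP messages, such as translation factors (20 of 22 measured), had medians of -0.11, 0.03 and 0.14, and ribosome biogenesis factors (30 of 32 measured) 0.11, 0.10 and -0.03. The lists of the translation apparatus thus differed in their median deviation on these arrays, a difference that was not tested. They were not matched for brightness, and whether the deviations depended on it was not tested. The elongation factor genes EEF1A1 and EEF2, for example, had mean log2 intensities of 16.05 and 15.92. The comparisons below are given with all 12 arrays and with the 9 left after these 3 are taken out, a choice made on the arrays' values.

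**Figure D2:**
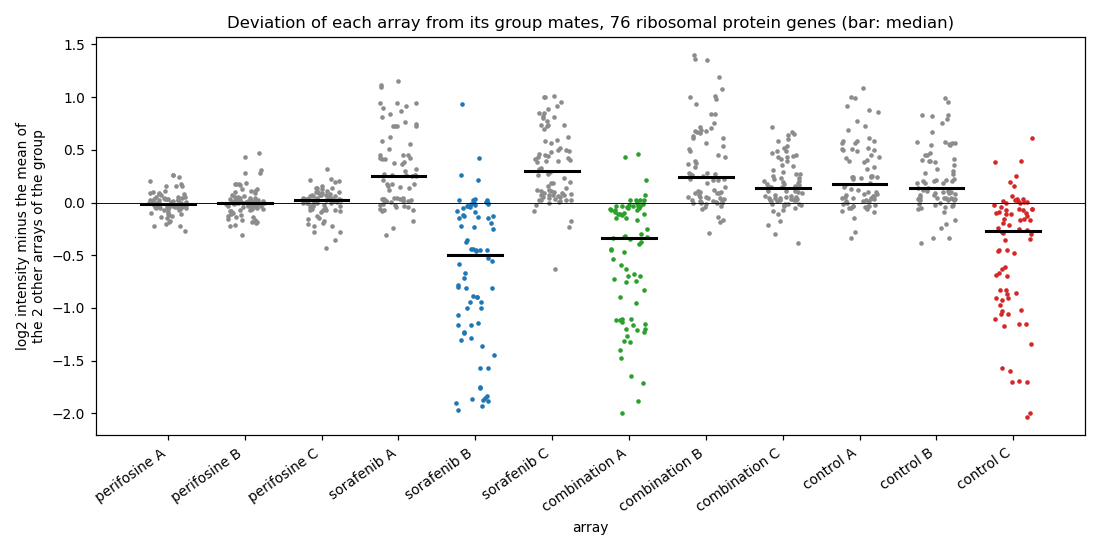
Deviation of each array from the mean of the 2 other arrays of its group, in log2 intensity, with a point for each of the 76 members and a bar at their median. Sorafenib B, combination A and control C have medians of -0.49, -0.34 and -0.27, and the 3 perifosine arrays lie close to 0.

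The drugs left nearly all members without a detected change. Genes were called at a Benjamini-Hochberg adjusted p under 0.05 over all 18852 genes, from limma. With all 12 arrays, 0 of 76 members were called with perifosine against control, while 0.297% of all genes were. For sorafenib against control the count was 0 members against 2.25% of all genes, and for the combination against control 0 members against 1.82%. The combination against perifosine gave 1 member, RPL37, which rose, against 2.2% of all genes. The combination against sorafenib gave 0 members and 0% of all genes, and the interaction, the effect of perifosine with sorafenib minus that without it, gave 0 members against 0.0159%.

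At an unadjusted p under 0.05 in limma, the members counted 0, 3, 4, 3, 2 and 1 of 76 in the same order of comparisons. The shares of all genes past that limit were 7.15%, 15.1%, 12.8%, 12.5%, 3.41% and 4.89%. In each comparison against control, 7.89% of the members had groups that did not overlap. The shares of all genes were 17.5% with perifosine, 17.7% with sorafenib and 19.3% with the combination. For the combination against perifosine the shares were 17.1% of the members and 23.1% of all genes. Separated groups of single members, given below, are thus common among all genes. A plateau at the top of the scale and 3 low arrays both bear on the members' tests, and a missed threshold does not show that their messages were unaltered.

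The fit with the 9 remaining arrays lacks control C, sorafenib B and combination A. These groups are thus smaller than the perifosine group, which keeps all 3 arrays. The arrays were left out because these same members read low on them, and the p-values of this fit do not allow for that choice. The members' calls were then 0 with perifosine against control (1.55% of all genes), 0 with sorafenib against control (4.65%), and 4 with the combination against control (5.9%). RPL13A and RPL37 rose and RPL29 and RPL34 fell in that last comparison. The combination against perifosine gave 5 members against 6.92% of all genes: RPL13A, RPL22, RPL37 and RPL7 rose and RPL29 fell. The combination against sorafenib gave 0 members and 0% of all genes, and the interaction 0 members against 0.0106%. In limma with these 9 arrays, the members at an unadjusted p under 0.05 were 3, 7, 13, 13, 6 and 3 of 76, while 13.0%, 18.3%, 20.2%, 19.7%, 5.58% and 7.65% of all genes passed that limit. The members' share called was near or under that of all genes in each comparison.

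The median over the members includes the 20 on the plateau, which could hardly rise. With all 12 arrays the median log2 change was 0.07 with perifosine, with 55 members above 0, and -0.11 with the combination against perifosine, with 55 below. Over the members with a mean log2 intensity under 16 these medians were 0.16 and -0.19. Without the 3 arrays, the medians over all 76 members were -0.02 and 0.01. The other 4 medians were between -0.02 and 0.01 with all arrays. The sign of these medians thus depended on which arrays were kept. Small subunit members had a median of 0.11 with perifosine, 0.00 with sorafenib and 0.01 with the combination, and large subunit members 0.06, -0.02 and -0.00, all against control. Members with the opening run and those without it had 9-array medians of -0.03 and 0.00 with perifosine, 0.01 and -0.01 with sorafenib, and -0.00 and -0.01 with the combination.

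**Figure D3:**
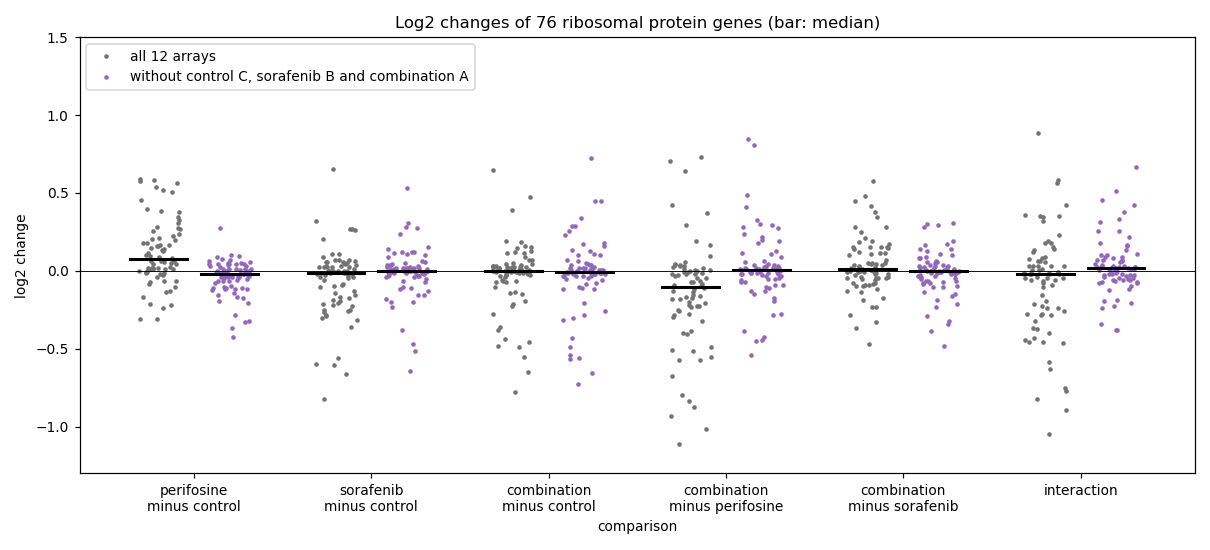
Log2 change of each of the 76 members in the 6 comparisons, with all 12 arrays in grey and with 9 arrays in purple, and a bar at the median. The grey medians of 0.07 for perifosine and -0.11 for the combination against perifosine lie near 0 in purple (-0.02 and 0.01), and the purple points spread less.

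RPL37 codes for a zinc-binding protein of the large subunit. It read 1156, 1224 and 1018 with perifosine, 1735, 2128 and 1813 with sorafenib, 1595, 2109 and 1952 with the combination, and 1505, 1001 and 1140 in controls. All 6 arrays with sorafenib were above all 6 without it. The combination exceeded perifosine by 0.73 on the log2 scale (SE 0.16, adjusted p = 0.0410), and by 0.85 with 9 arrays (SE 0.15, adjusted p = 0.00565).
Against control the combination was 0.64 higher (adjusted p = 0.0753) and sorafenib 0.65 higher (adjusted p = 0.0639), and with 9 arrays the combination gave 0.73 (adjusted p = 0.0259). The second probe of RPL37 gave -0.23 for the combination against perifosine and -0.04 against control (SE 0.17 each), opposite in sign to the first. For sorafenib against control it gave 0.30, of the same sign. Its mean log2 intensity of 8.83 lies under 9, as most probes do, so its signs are uncertain. The call against perifosine held in 10 of 21 alternative settings and was lost in the others, with adjusted p up to 0.529 when all probes of a gene were averaged.

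RPL22 codes for a large subunit protein that also binds other RNAs. Its intensities were 19273, 17533 and 15176 with perifosine, 21549, 29317 and 22201 with sorafenib, 33171, 23508 and 24798 with the combination, and 16567, 18822 and 23206 in controls. The combination arrays were all above the perifosine and control arrays. Against perifosine it was 0.64 higher (SE 0.18, adjusted p = 0.102), and with 9 arrays it rose by 0.49 (adjusted p = 0.0314).

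RPL13A, which is often used as a reference gene in quantitative PCR and which in monocytes can leave the ribosome to silence inflammatory messages, read 9631, 10027 and 10243 with perifosine. It read 14031, 6417 and 14282 with sorafenib, 13941, 17905 and 17057 with the combination, and 13501, 12191 and 11485 in controls. The perifosine arrays were below, and the combination arrays above, all control arrays. The combination was 0.70 above perifosine (SE 0.25, adjusted p = 0.229), and with 9 arrays it rose by 0.81 (SE 0.10, adjusted p = 0.000504). Against control it was 0.39 higher (adjusted p = 0.612) and rose by 0.45 with 9 arrays (adjusted p = 0.0369). Its interaction was 0.89 (SE 0.35, adjusted p = 0.968), and 0.67 with 9 arrays (adjusted p = 0.244).

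RPL7, a large subunit protein, had 5119, 5091 and 5369 with perifosine, 5431, 3017 and 5800 with sorafenib, 3558, 6581 and 7255 with the combination, and 5619, 5679 and 5020 in controls. Combination A was the low one of its group. The combination stood 0.09 above perifosine with all arrays (SE 0.27, adjusted p = 0.943). With the 9 arrays, which leave out combination A, it stood 0.41 above (adjusted p = 0.0313). RPL7 was called in this comparison in 1 of 21 alternatives.

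RPL29 binds heparin outside the ribosome and is otherwise a large subunit protein. It read 10035, 9522 and 10872 with perifosine, 8978, 2155 and 7940 with sorafenib, 3082, 8150 and 6755 with the combination, and 11933, 11463 and 6239 in controls. Control C fell between the combination arrays, so the groups overlapped. The change of the combination against control was -0.78 with all arrays (SE 0.50, adjusted p = 0.618), and it fell by 0.66 with 9 (adjusted p = 0.0129). Against perifosine the change was -0.87 (adjusted p = 0.55) and, with 9 arrays, -0.45 (adjusted p = 0.0411). Its second probe, at a mean of 12.80, gave -0.79 against control and, with 9 arrays, -0.71 (SE 0.14).

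RPL34 read 8740, 8190 and 9847 with perifosine, 7682, 2128 and 7490 with sorafenib, 2358, 7392 and 5784 with the combination, and 10987, 10677 and 3336 in controls. The change of the combination against control was -0.65 (SE 0.58, adjusted p = 0.757), and it fell by 0.73 with 9 arrays (adjusted p = 0.0105). A second probe of RPL34, at a mean of 11.73, gave 0.10 and, with 9 arrays, 0.12 (SE 0.15), so its probes disagreed in direction.

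**Figure D4:**
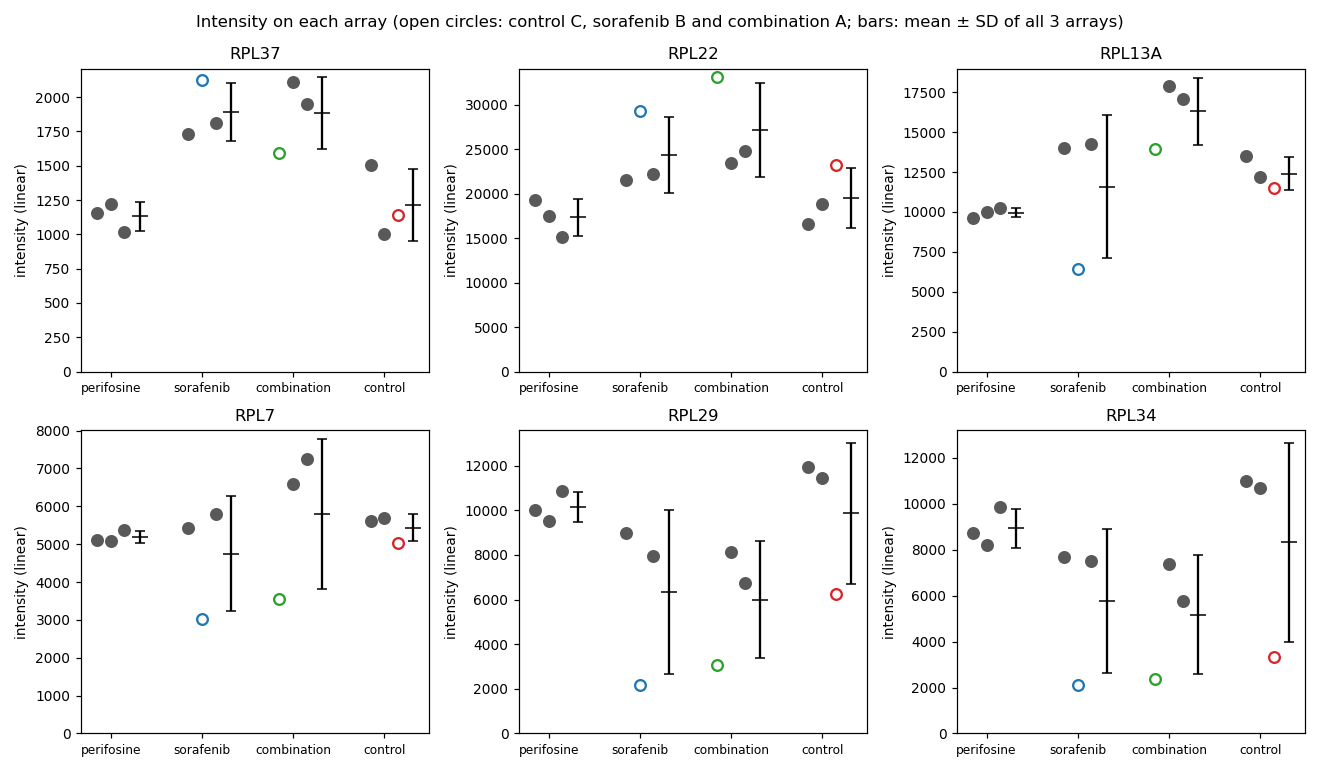
Linear intensity of the 6 members called in any comparison, on each of the 3 arrays of a group, with the mean ± SD beside them and open circles for sorafenib B, combination A and control C. RPL37 lies higher on all 6 arrays with sorafenib, and RPL29 and RPL34 have their lowest sorafenib, combination and control values on the open circles.

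Several large changes that were not called came with large errors. RPS26, a small subunit protein at the exit of the messenger channel, had the lowest change of all, -1.11 for the combination against perifosine (SE 0.60, adjusted p = 0.514), and -0.54 with 9 arrays (SE 0.16, adjusted p = 0.0589). Its second probe gave -0.77 and, with 9 arrays, -0.55 (SE 0.13). RPS28 had the highest change with perifosine, 0.59 (SE 0.49, adjusted p = 0.924), and 0.07 with 9 arrays. RPS7, a small subunit protein, had -0.60 with sorafenib (SE 0.46, adjusted p = 0.622) and -0.20 with 9 arrays. RPL23A and RPL28, of the large subunit, were among the 3 highest for the combination against sorafenib, at 0.48 (SE 0.30) and 0.45 (SE 0.21), and had 0.29 and 0.16 with 9 arrays; neither was called. RPL10L, a paralog of RPL10 that acts in the male germ line, was -0.60 with sorafenib (adjusted p = 0.0967) and -0.49 with the combination (adjusted p = 0.214), both against control. RPL10L is near-identical to RPL10 in sequence, so the gene its probe reads is uncertain.

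Among the members that bind MDM2, RPL5 read 57051, 45670 and 56152 with perifosine, 53629, 39964 and 56496 with sorafenib, 52765, 54551 and 57498 with the combination, and 60105, 60184 and 62625 in controls. All 9 treated arrays were below the 3 controls, and the changes were -0.21, -0.30 and -0.15 (adjusted p = 0.873, 0.327 and 0.762). With 9 arrays the changes of RPL5 were -0.19, -0.13 and -0.10. The values of RPL11, on the plateau, were 0.02, -0.02 and -0.02 in the same order. Those of RPL23 were 0.38, 0.20 and 0.15 with all arrays and 0.10, 0.28 and 0.34 with 9, none of them called.
RPS27L, the p53-induced paralog, averaged 45946 ± 4984 with perifosine, 41385 ± 18416 with sorafenib, 34544 ± 14018 with the combination and 34293 ± 15094 in controls (SD, n = 3 each). Its log2 changes against control were 0.54, 0.27 and 0.03 with all arrays and 0.09, 0.28 and -0.01 with 9, none of them called.

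Some paralog pairs were set side by side on the 3 low arrays. A reading near the top of the scale could still fall. RPL27A, for example, had log2 intensities of 16.11 and 16.09 on controls A and B and 14.99 on control C. RPL7 deviated by -0.90 on sorafenib B, -0.96 on combination A and -0.17 on control C, and RPL7L1, an RPL7-like protein, by 0.00, -0.07 and 0.04. RPL39, a short protein lining the exit tunnel, sat on the plateau and deviated by -0.05, -0.11 and -0.20. RPL39L, its copy used in the male germ line, deviated by -1.76, -1.10 and -0.87. A reading on the plateau may hide part of a fall, which was not tested.
RPL26 gave -1.45, -1.22 and -1.17 and RPL26L1 -1.90, -1.20 and -1.06, and as their sequences are near-identical, the reads of this pair are uncertain. RPS27L deviated by -1.36, -1.20 and -1.34, and the brightest probe of RPS27, on the plateau, by -0.02, -0.07 and -0.28. A dimmer probe of RPS27, at a mean log2 intensity of 13.78, gave 0.54 with perifosine against control with all arrays (SE 0.59) and -0.09 with 9 (SE 0.22). None of RPL7L1, RPL39, RPL39L, RPL26, RPL26L1 or RPS27 was called against control with all arrays or with 9.

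Several members serve as reference genes in other assays. RPS18 averaged 60331 ± 1431 with perifosine, 50975 ± 20514 with sorafenib, 48981 ± 18746 with the combination and 48810 ± 19020 in controls (SD, n = 3 each). On sorafenib B, combination A and control C it read 27877, 27624 and 26848, and on the other 9 arrays 56613 to 67071. RPS13 showed the same split, with 23925, 21851 and 25993 on those 3 arrays and 52662 to 61349 on the others. RPL32, another such gene, read 59549, 50218 and 49215 on the 3 arrays and 64802 to 70045 on the others. With 9 arrays the changes of RPS18 against control were 0.01 with perifosine, 0.06 with sorafenib and -0.00 with the combination, and none was called.

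The remaining 50 probes of the members offered a second reading of the same genes. The sign of their change matched that of the brightest probe for 38, 37, 30, 34, 36 and 35 of 50 in the 6 comparisons, in the order given above. Probes of a gene share the RNA of the array, so they do not replicate the drug effect.

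Genes that work beside the ribosomal proteins were read from lists of known function. Of 30 measured ribosome biogenesis factors, which process ribosomal RNA and assemble the subunits, 0 were called with perifosine (5 at an unadjusted p under 0.05 in limma), 5 fell with sorafenib and 6 fell with the combination, all against control. Of all genes, 0.297%, 2.25% and 1.82% were called in these comparisons. The medians were -0.22, -0.47 and -0.45, against 0.00 for all genes in each comparison. PNO1, needed for the small subunit, fell by 0.69 with sorafenib (SE 0.11, adjusted p = 0.0090) and by 0.58 with the combination (SE 0.11, adjusted p = 0.0196). NIP7, needed for the large subunit, fell by 0.74 and 0.72 (adjusted p = 0.0172 and 0.0196). With 9 arrays the counts were 0, 8 and 12 of 30, all of them falls, against 1.55%, 4.65% and 5.9% of all genes. The difference between this list and the members was not tested.

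No other TOP message of 20 was called in any of these 3 comparisons (1, 1 and 0 at an unadjusted p under 0.05 in limma), with medians of -0.06, -0.06 and 0.04 on the log2 scale. None of 12 RNA polymerase I genes was called either (3, 2 and 2 at an unadjusted p under 0.05 in limma). Mitochondrial ribosomal proteins gave 0 calls of 76 against control (2, 16 and 4 at an unadjusted p under 0.05 in limma), with medians of -0.01, -0.37 and -0.21. With 9 arrays 0, 3 and 6 of them were called, all lower, against 1.55%, 4.65% and 5.9% of all genes, so their share was near that of all genes. Oxidative phosphorylation genes gave 0 calls of 24 with all arrays (0, 0 and 0 at an unadjusted p under 0.05 in limma). With 9 arrays 1 of them, ATP5MC1, fell with the combination (adjusted p = 0.0475).

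Among 20 regulators upstream of ribosome production, DDIT4, which restrains mTOR complex 1, rose in all 3 treated groups. It read 4641, 4862 and 5113 with perifosine, 14386, 10763 and 11384 with sorafenib, 16634, 18654 and 19775 with the combination, and 3044, 2143 and 2379 in controls, with no overlap with the controls. The changes were 0.96, 2.28 and 2.88 on the log2 scale (adjusted p = 0.0208, 3.1e-05 and 6.8e-06). SESN2, another restraint on mTOR complex 1, rose by 1.11 with the combination (adjusted p = 0.0345). PIM1, a kinase, rose by 0.58 with sorafenib (adjusted p = 0.0408) and by 0.74 with the combination (adjusted p = 0.0160).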

How the data were processed

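Total RNA of 12 HD-MyZ samples was measured on Illumina arrays, and the labels' protocols name biotin-labelled cRNA. The authors deposited a table of intensity values, processed with BeadStudio per the submitters' processing notes; the sources used here do not give its normalization and background settings. The sorted columns differ by at most 2.35%, so the arrays share nearly 1 distribution, from 170 to 71906. Another deposited table has 12 columns whose names match no label, and it was not used here.

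Of 48803 probes, 28098 carry 1 gene symbol, 13 several and 20692 none in the platform annotation. The brightest probe stood for each of 18852 genes. Some genes that fit the symbol rule are not reported here. Log2 intensities were fitted with limma 3.58.1 (R 4.3.3) with 4 group means, with Benjamini-Hochberg adjustment across the genes and a threshold of 0.05. With all 12 arrays there were 8 residual and 3.52 prior degrees of freedom, and with 9 arrays there were fewer residual ones. The fit was tested on simulated data. The number of arrays limits the precision.

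Members and lists were chosen with earlier results of these data known. Named members are those called in any comparison, those with the 3 highest and 3 lowest changes in each, the 3 brightest and 3 dimmest, 7 paralog pairs, common PCR reference genes, FAU, the MDM2 binders and the stalk genes. Examples from the other lists, and the deviations described, were picked after their values were seen. The labels do not say whether the letters A to C pair the arrays. Deviations of same-letter arrays correlated between -0.57 and 0.49, over 0.1 in 5 of 18 pairs. The 3 low arrays carry different letters and weigh on these correlations, which therefore cannot decide whether the letters pair the arrays. Alternatives were the letter as a replicate block, leaving out arrays, array weights, fewer arrays in the fit, centring, an intensity filter, all probes averaged, normexp background correction with offset 50, and an intensity trend. Promoter sequences are from RefSeq, GRCh38.p14.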

Additional observations from a re-analysis of the deposited data

How the results depend on the processing

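The count of members called was 0 in all 21 alternatives for perifosine against control, the combination against sorafenib and the interaction. For the combination against perifosine, where 1 member was called, the count was 5 without control C, sorafenib B and combination A together, 3 with array weights, 2 with only the arrays compared, and 0 with the replicate block, with the mean of all probes, with normexp background correction or with an intensity trend. Leaving out 1 array at a time gave 0 to 3. For the combination against control, with 0 called, the count was 4 without the 3 arrays and 2 with array weights, and 0 to 1 when 1 array was left out (RPL37, without control A or sorafenib B). For sorafenib against control, with 0 called, it was 2 with array weights and 0 to 1 when 1 array was left out (RPL37, without control A). The replicate block changed no other count. RPL37 in the combination against perifosine was called in 10 of 21 alternatives, with changes of 0.25 to 0.85; the call was lost with the replicate block (adjusted p = 0.0864), and without control C, sorafenib C, combination B or C, or any 1 of the perifosine arrays (adjusted p = 0.0555 to 0.176). RPL7 reversed in that comparison, at -0.03 without combination B and -0.10 without combination C, and gave up to 0.41 when 1 array was left out; fewer arrays entered those fits. Among members with a mean log2 intensity under 16, an alternative chosen after seeing the data, the median change was 0.16 for perifosine and -0.19 for the combination against perifosine. Over all alternatives the medians ran from -0.02 to 0.16 and from -0.19 to 0.01 in these comparisons, so both changed sign. The plateau near log2 16 limits what the brightest probe can show for the 20 members that average at least 16. It also bears on others, as 37 members reached an intensity of 65536 on at least 1 array.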
